A study of Mus musculus with 9 samples.

Results

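The potassium channel genes described here are the protein-coding mouse genes whose symbol begins with Kcn, apart from Kcnj13 and Kcne2, both known from the choroid plexus. There were 92 of them among 21614 protein-coding genes with an annotated coding sequence, and 89 of them had at least 1 count, of 26602 genes with a count in any library. The filter of at least 10 counts summed over the 9 libraries kept 78 of the 92, of 18127 genes kept in all. The 14 that did not pass were Kcna7, Kcna10, Kcne1, Kcne3, Kcng3, Kcnh4, Kcnj1, Kcnj15, Kcnk15, Kcnk16, Kcnk18, Kcnmb3, Kcnq1 and Kcnv2. Kcna10, Kcnk16 and Kcnk18 had 0 counts in every library, which allows a level of up to 3.56 cpm (counts scaled to a library total of 1e+06) in the shallowest library. Just outside the filter were Kcnk15 with 9 counts and Kcnq1 with 8, and just inside it were Kcnh6 with 10 counts, Kcnn4 with 14 and Kcnrg with 18.

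The RNA came from midbrain tissue that included the substantia nigra pars compacta (SNpc), frozen on dry ice, of 4 DJ-1+/+ mice and 5 DJ-1-/- mice aged 3 to 4 months. The DJ-1-/- mice are homozygous for a targeted Park7 (DJ-1) allele, on a line that was backcrossed to C57BL/6 and bred from heterozygotes, so every cell type of the tissue carries it. The comparison asks how loss of DJ-1 changes transcript levels in this tissue. Each library was made from 1 animal by 3′ mRNA sequencing with unique molecular identifiers, so a count stands for a transcript molecule and does not grow with gene length, and levels of different genes are compared below in cpm with no correction for length.

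Library totals lay between 841974 and 886085 counts in DJ-1+/+ mice and between 967751 and 1098125 in DJ-1-/- mice. Park7 fell from 135 ± 15.7 cpm (SD, n = 4) to 20.4 ± 4.54 cpm (SD, n = 5), with no overlap between the genotypes. A fixed list of 22 dopaminergic neuron genes, all 22 of which had counts, summed to between 869 and 1693 cpm per library. A choroid plexus list reached 1582 cpm in DJ-1+/+ replicate 4 and lay between 471 and 755 cpm in the other mice, and a cerebellar list reached 2040 cpm in DJ-1+/+ replicate 1 and lay between 779 and 1024 cpm in the others. Xist, which is transcribed from the inactive X chromosome, lay between 153 and 182 cpm in 6 mice, and was at 0.00, 1.13 and 1.95 cpm in, respectively, replicates 1 and 4 of the DJ-1+/+ mice and replicate 5 of the DJ-1-/- mice. The p-values below judge a genotype difference against the spread between these mice. They do not separate genotype from the differences in the lists given above, or, except where Xist is a covariate, from those in Xist.

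Potassium channels let potassium ions leave or enter a cell down their electrochemical gradient, and so set the resting potential, shape the action potential and pace repetitive firing. Pore-forming subunits of all classes share a selectivity filter built around a glycine, a tyrosine or phenylalanine, and another glycine, while auxiliary subunits have no pore of their own and alter the gating or the traffic of the channel they join. In dopaminergic neurons of the SNpc, slow pacemaking is shaped by A-type channels with Kcnd3 subunits and by small-conductance calcium-activated channels with Kcnn3 subunits, and dopamine D2 autoreceptors act through G protein-gated inward rectifiers that include Kcnj6. Astrocytes clear extracellular potassium through inward rectifiers built from Kcnj10 and Kcnj16.

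The division into pore-forming and auxiliary members was visible in their coding sequences. The longest coding sequence of each gene in GENCODE M21 (GRCm38) was read in frame on the coding strand. The run sought was a GGN glycine codon, a tyrosine or phenylalanine codon (TAT, TAC, TTT or TTC) and a second GGN codon. Before it stood a codon for threonine or serine and then one for valine, isoleucine or leucine. Leucine was read as CTN only, so runs with TTA or TTG at that place were not counted. Of 76 pore-forming members 73 held the run, and of the 16 other members (11 auxiliary subunits of voltage-gated channels, 4 BK beta subunits and Kcnrg) 0 did. Among the 21522 protein-coding genes that are no members 70 held it, which is 0.325%. The pore-forming members with no match under this rule were Kcnc2, Kcnk1 and Kcnk7, and whether they hold TTA or TTG there was not examined. The run occurred 2 times in 11 of the 14 tandem pore-domain (Kcnk) genes, whose subunits carry a pair of pore loops, and in no other member. The phenylalanine form occurred in 24 members, among them all 8 EAG-type (Kcnh) genes, the sodium-activated channels Kcnt1 and Kcnt2, and Kcnj8 and Kcnj11, the pore subunits of ATP-sensitive channels. A match describes these letters only.

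The filter stretches of members that the results below turn on are given here, with the 3 codons of the glycine, aromatic and glycine residues in capitals and 3 codons on either side in lower case, from coding bases that are counted from 1 at the start codon. Kcnj6 and Kcnd3 are among the channels named above for dopaminergic neurons, Kcnj2 and Kcnt2 are the members with the lowest unadjusted p-values, Kcna4 and Kcnj14 are among the members that varied most between mice, and Kcnk3 shows both forms in 1 gene.
Kcnj6, bases 457 to 483, chr16:94832768-94832794, minus strand: accaccatcGGTTATGGCtaccgggtc
Kcnd3, bases 1096 to 1122, divided between 2 exons: actacactgGGATATGGAgacatggtg
Kcnj2, bases 421 to 447, chr11:111072204-111072230, plus strand: acaaccattGGCTATGGTttcaggtgt
Kcnt2, bases 721 to 747, chr1:140425275-140425301, plus strand: tctactgtgGGCTTTGGGgatgtcact
Kcna4, bases 1570 to 1596, chr2:107296492-107296518, plus strand: acaactgtgGGCTATGGGgacatgaag
Kcnj14, bases 430 to 456, chr7:45819624-45819650, minus strand: acgtccataGGCTATGGTgtgcgcagc
Kcnk3 first pore, bases 274 to 300, divided between 2 exons: accaccatcGGCTATGGTcatgcggcg
Kcnk3 second pore, bases 592 to 618, chr5:30622199-30622225, plus strand: accaccatcGGCTTCGGCgactatgtg
Among these 8 stretches the last one and that of Kcnt2 carry a phenylalanine codon, and the others carry a tyrosine codon.

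Together the 92 genes held between 4222 and 5642 counts per library. In DJ-1+/+ mice they summed to 5065 ± 132 cpm (SD, n = 4), against 5116 ± 168 cpm (SD, n = 5) in DJ-1-/- mice, and all 9 libraries lay between 4936 and 5367 cpm. By mean level, 23 tested members lay at or above 100 cpm, 39 lay between 10 and 100 cpm and 16 lay below 10 cpm. Kcna2, a delayed rectifier subunit of axons, was the most abundant at 234 cpm over the 9 mice, followed by Kcnc1 at 188 cpm, a fast delayed rectifier subunit of fast-spiking neurons, Kcnma1 at 184 cpm, the pore subunit of the large-conductance calcium-activated (BK) channel, and Kcnj10 at 172 cpm. The ranges over mice of these 4 overlapped: in DJ-1-/- mice Kcna2 lay between 202 and 251 cpm, Kcnc1 between 178 and 210 cpm, Kcnma1 between 142 and 229 cpm and Kcnj10 between 166 and 184 cpm, so only Kcna2 and Kcnj10 were apart there. Members on 19 chromosomes were counted, and 42 of the 92 overlap another annotated gene, 38 of them one on the opposite strand. These overlaps are of whole gene spans, introns included, and how many members share exons with the other gene was not examined. Whether strand was used in counting is not given in the sources used here. Where exons on opposite strands overlap, reads of such pairs may therefore not be told apart.

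**Figure D1:**
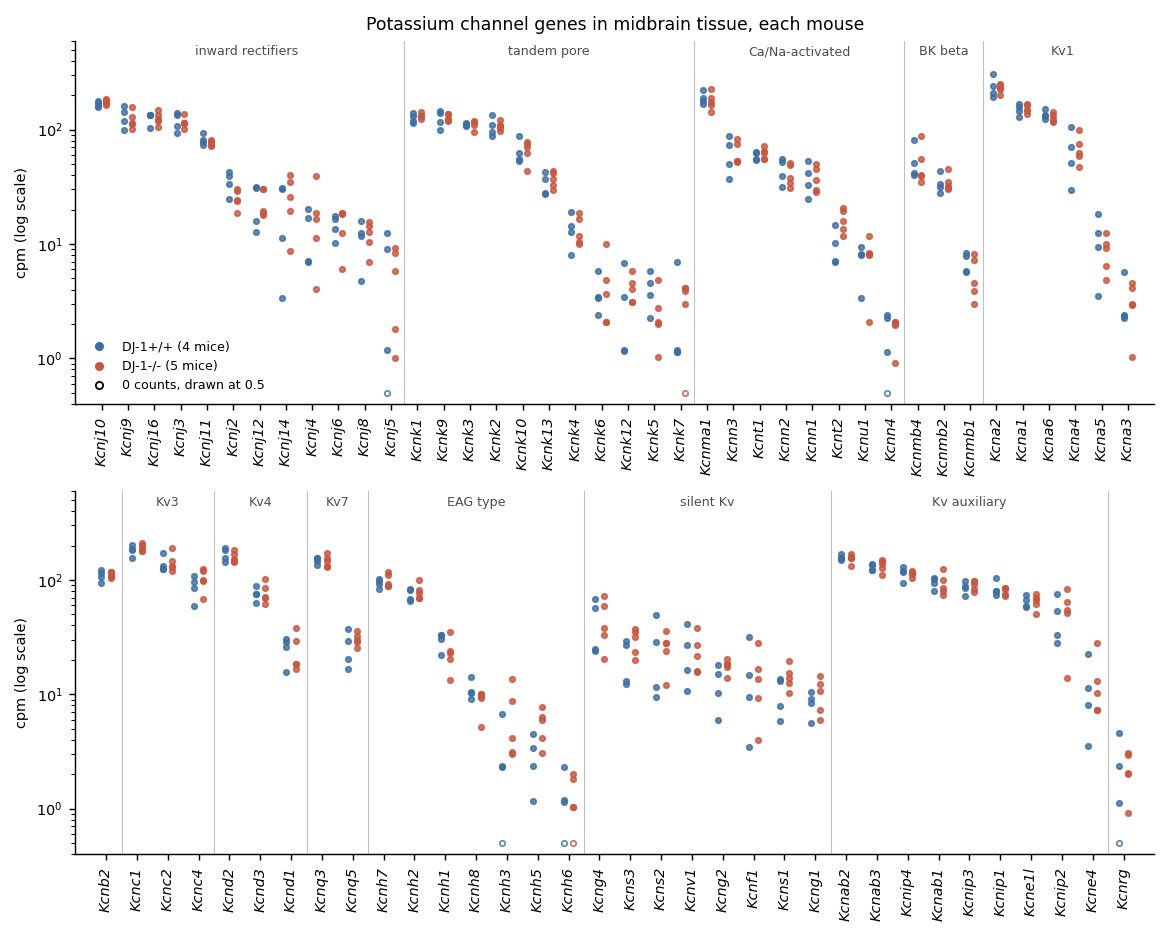
The level of 74 of the 78 tested members in each mouse, in cpm on a log axis, grouped by channel class, with DJ-1+/+ mice in blue, DJ-1-/- mice in red and libraries with 0 counts as open points at 0.5. Kcna2 leads with a mean of 234 cpm, 20 of those drawn lie at or above 100 cpm, and the genotypes overlap for every member.

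Each class of channel held a share of the summed level, taken over all 9 mice. Auxiliary subunits of voltage-gated channels (Kcnab, Kcnip and Kcne genes) held 15.6% of it, inward rectifiers 14.6%, tandem pore-domain channels 11.9%, Kv1 pore subunits (Kcna) 11.7%, Kv3 pore subunits (Kcnc) 11.6%, and calcium- or sodium-activated pore subunits 8.05%. Kv7 subunits (Kcnq), which carry the M current, held 6.76%, Kv4 subunits (Kcnd) 5.19%, Kv2 subunits (Kcnb) 4.97%, EAG-type subunits 4.34%, electrically silent subunits (Kcnf, Kcng, Kcns and Kcnv), which act only within Kv2 channels, 3.35%, and BK beta subunits 1.83%. The summed level of inward rectifiers was 746 ± 21.7 cpm (SD, n = 4) against 744 ± 35.0 cpm (SD, n = 5), and that of tandem pore-domain channels 596 ± 45.9 cpm against 612 ± 26.6 cpm. The widest gap between the means relative to their size was that of the silent subunits, at 158 ± 21.7 cpm in DJ-1+/+ mice and 181 ± 26.6 cpm in DJ-1-/- mice, where the ranges overlapped.

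No potassium channel gene passed an adjusted p of 0.05 (edgeR's quasi-likelihood test, Benjamini-Hochberg over 18127 genes). The share of all genes that did was 0.00552%. At an unadjusted p of 0.05 in edgeR, 2 of 78 members passed, beside 2.83% of all genes tested, and in DESeq2 1 did, beside 1.30%. One of the 2 was higher in DJ-1-/- mice, where 1.57% of all genes were called higher, and 1 was lower, where 1.26% were called lower. The members' share of 2.56% was near the background. None of the 78 members had cpm values that separated the genotypes without overlap, and 1.25% of all genes tested did. The log2 fold change of DJ-1-/- over DJ-1+/+ mice was above 0 for 48 members and below 0 for 30, with a median of 0.03, beside 51.9% of all genes above 0 and a median of 0.01. The 95% interval of the log2 fold change lay within 0.25 on either side of 0 for 11 members, within 0.5 for 35 and within 1 for 54 of 78.

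**Figure D2:**
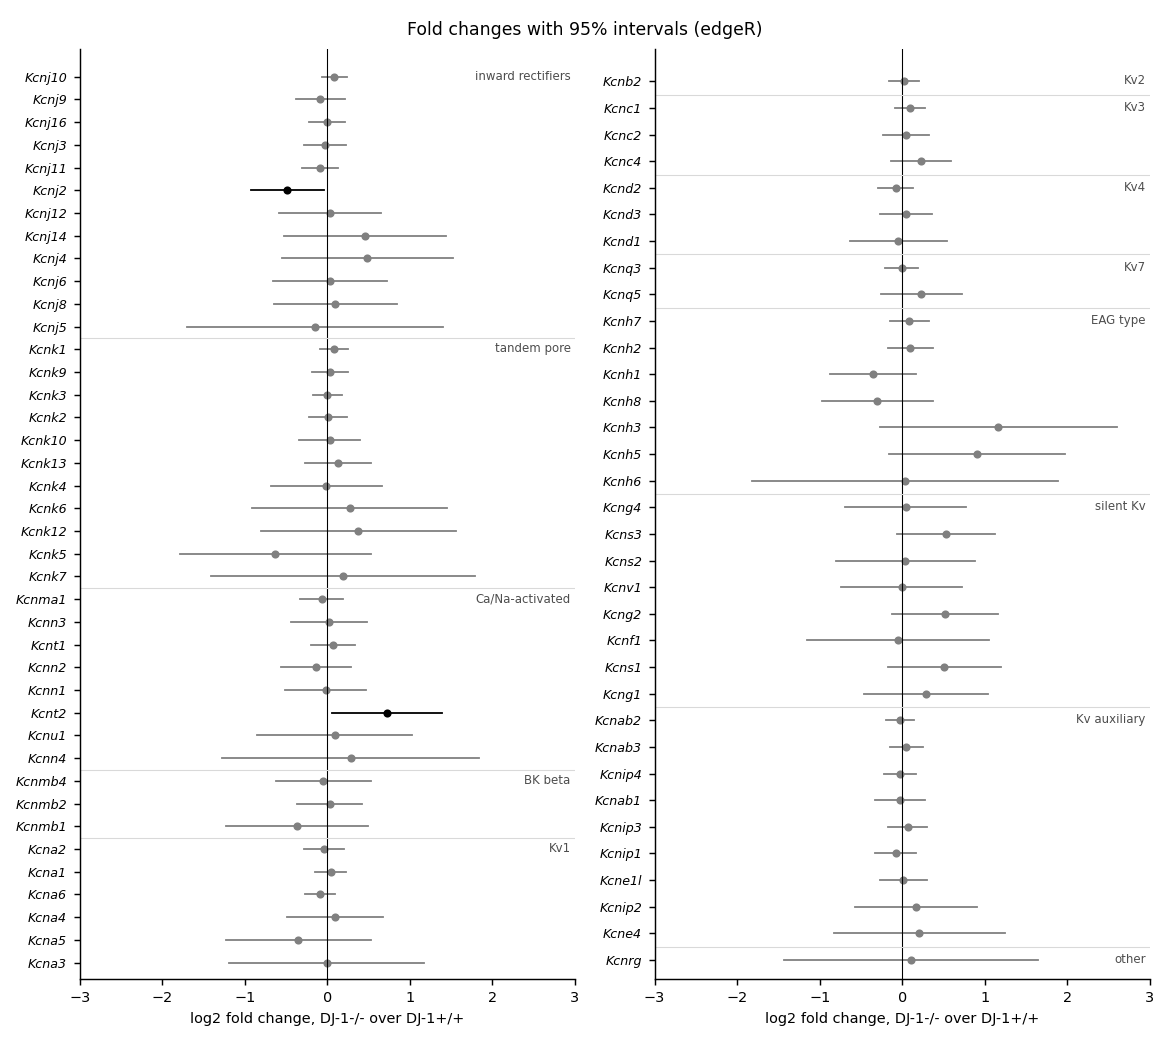
The log2 fold change of DJ-1-/- over DJ-1+/+ mice of 74 of the 78 tested members, each with its 95% interval from edgeR, grouped by channel class, in black where the unadjusted p was under 0.05. Intervals of Kcnj2 and Kcnt2 lie on one side of 0, and 51 of the 74 lie within 1 on either side of it.

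The 3 channels known from dopaminergic neurons did not pass the test, and their genotypes overlapped. Kcnj6 (ENSMUSG00000043301, chr16:94748636-94997701) gave 14, 12, 15 and 9 counts in the DJ-1+/+ group, against 6, 20, 18, 12 and 19 in the DJ-1-/- group. The highest and the lowest mouse were both DJ-1-/- in count. Its log2 fold change was 0.03 (SE 0.33, 95% interval −0.66 to 0.73), an interval that reaches beyond 0.5 on both sides of 0 at these counts. Kcnn3 (ENSMUSG00000000794, chr3:89520164-89675132) was at 36.8, 73.9, 50.0 and 88.0 cpm in DJ-1+/+ mice and at 52.0, 53.7, 74.3, 53.7 and 82.8 cpm in DJ-1-/- mice. The genotypes overlapped over their whole range, with a log2 fold change of 0.02 (SE 0.22, 95% interval −0.44 to 0.48). Kcnd3 (ENSMUSG00000040896, chr3:105452330-105674002) was at 76.0, 75.0, 62.8 and 88.0 cpm in DJ-1+/+ mice and at 71.1, 69.2, 85.6, 62.0 and 102 cpm in DJ-1-/- mice. Its log2 fold change was 0.05 (SE 0.15, 95% interval −0.27 to 0.36), and Kcnd3 and Kcnn3 were each highest in DJ-1+/+ replicate 4 and DJ-1-/- replicate 5. In bulk tissue, fewer cells of a type and less RNA per cell cannot be told apart. Of the 22 dopaminergic genes, 19 had a log2 fold change above 0, with a median of 0.41. In edgeR 7 passed an unadjusted p of 0.05, all higher in DJ-1-/- mice, beside 1.57% of all genes called higher, while 1 passed in DESeq2. The list summed to 1219, 1620, 983 and 869 cpm in DJ-1+/+ mice and to between 1168 and 1693 cpm in DJ-1-/- mice, so the genotypes overlapped. Of 18 cerebellar genes, 17 had a log2 fold change below 0. In edgeR 12 passed an unadjusted p of 0.05, all lower, beside 1.26% of all genes called lower. In DESeq2 7 passed, beside 1.30% of all genes. This list summed to 2040 cpm in DJ-1+/+ replicate 1 and to between 779 and 1024 cpm in the other mice. Of 20 choroid plexus genes, 19 had a log2 fold change below 0, and 9 passed in edgeR, all lower, and 5 in DESeq2. Their sum was 1582 cpm in DJ-1+/+ replicate 4 and between 471 and 755 cpm in the other mice. How far the calls of these 2 lists rest on those single mice was not tested. The part of the 3 lists in the values of the channels was not tested.

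The 2 members with an unadjusted p under 0.05 were both of low level. Kcnj2 (ENSMUSG00000041695, chr11:111066164-111076821), a strong inward rectifier that holds the resting potential, had 28, 22, 37 and 35 counts in DJ-1+/+ mice and 30, 26, 28, 18 and 25 in DJ-1-/- mice. In cpm these were 33.3, 25.0, 43.0 and 39.5 against 30.0, 23.7, 28.9, 18.6 and 24.4. All DJ-1-/- mice lay below 3 of the 4 DJ-1+/+ mice, and DJ-1+/+ replicate 2 lay among them. The log2 fold change was −0.49 (SE 0.21, 95% interval −0.93 to −0.04, edgeR p = 0.0342, adjusted p = 1.0), and the two-sided exact permutation p over all splits into 4 and 5 mice was 0.0635, where the smallest possible is 0.0159. Kcnt2 (ENSMUSG00000052726, chr1:140246158-140612067), a sodium-activated channel, had 6, 9, 6 and 13 counts in DJ-1+/+ mice and 16, 13, 20, 13 and 20 in DJ-1-/- mice. In cpm these were 7.13, 10.2, 6.98 and 14.7 against 16.0, 11.8, 20.6, 13.4 and 19.5. All DJ-1-/- mice lay above 3 of the 4 DJ-1+/+ mice, and DJ-1+/+ replicate 4 lay above 2 of them. The log2 fold change was 0.72 (SE 0.31, 95% interval 0.06 to 1.39, edgeR p = 0.0348, adjusted p = 1.0), with an exact permutation p of 0.0476. Neither call held with every library left out in turn, while the log2 fold change stayed between −0.63 and −0.38 for Kcnj2 and between 0.59 and 0.99 for Kcnt2. The edgeR p of Kcnj2 lay between 0.0508 and 0.119 when DJ-1+/+ replicate 3 or 4 or DJ-1-/- replicate 2, 4 or 5 was left out, and was 0.0590 with Xist as a covariate. That of Kcnt2 lay between 0.0506 and 0.0979 when DJ-1+/+ replicate 1, 2 or 3 or DJ-1-/- replicate 1, 3 or 5 was left out, and was 0.0644 in DESeq2.

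**Figure D3:**
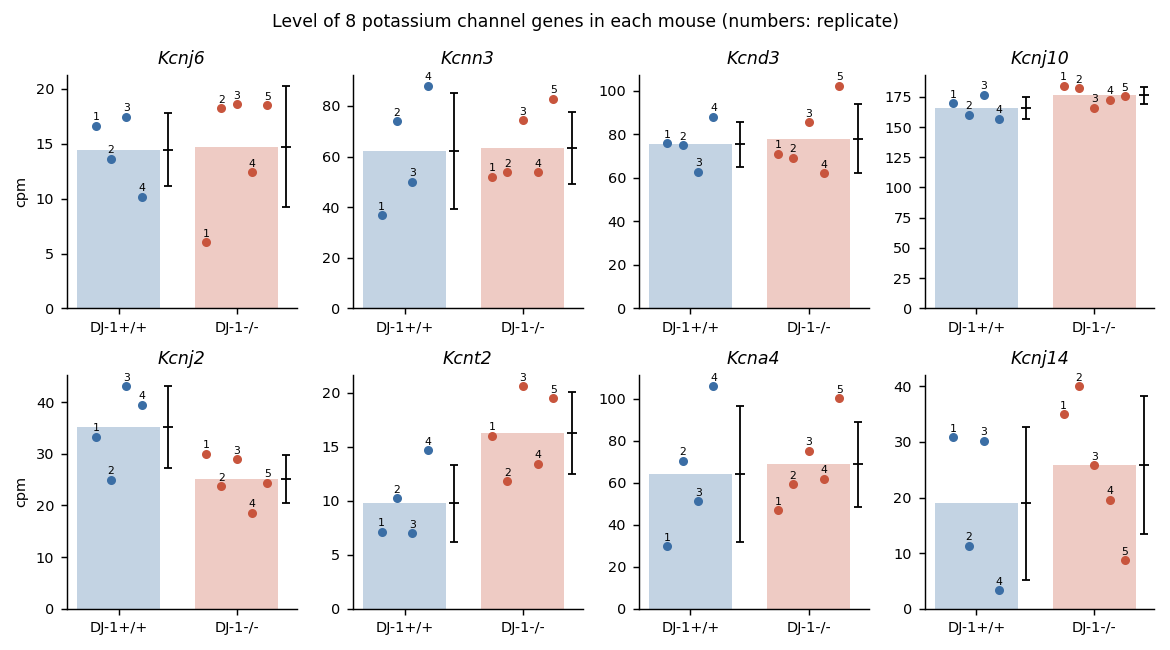
The cpm of 8 potassium channel genes in each mouse (points, numbered by replicate), with bars for the genotype mean and lines for the SD (n = 4 DJ-1+/+, n = 5 DJ-1-/-). Kcnj2 and Kcnt2 overlap between genotypes through 1 DJ-1+/+ mouse each, and Kcna4 and Kcnj14 spread widely in both genotypes, with replicate 4 of DJ-1+/+ and replicate 5 of DJ-1-/- at opposite ends in the 2 genes.

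The inward rectifiers of astrocytes were abundant in every mouse and did not pass the test. Kcnj10 (ENSMUSG00000044708), the main potassium channel of astrocytes, was at 170, 160, 177 and 157 cpm in DJ-1+/+ mice and at 184, 182, 166, 173 and 175 cpm in DJ-1-/- mice. Its log2 fold change was 0.09 (SE 0.07, 95% interval −0.06 to 0.23), and among the members with at least 90 counts it varied the least between mice of a genotype. Kcnj16, its partner subunit, was at 134, 134, 135 and 103 cpm in DJ-1+/+ mice and at 120, 134, 124, 148 and 106 cpm in DJ-1-/- mice (95% interval of the log2 fold change −0.22 to 0.22), and DJ-1+/+ replicate 4 stood apart as the lowest of its group. Of 12 astrocyte genes 0 passed an unadjusted p of 0.05 in edgeR or DESeq2, of 12 oligodendrocyte genes 0 did in either, and of 10 mural cell genes 1 did in each. The pore subunits of ATP-sensitive channels, which open when cell energy falls, were Kcnj11 of neurons at 81.7 ± 8.91 cpm (SD, n = 4) against 76.8 ± 3.82 cpm (SD, n = 5), with a log2 fold change of −0.09 (SE 0.10), and Kcnj8 of vascular mural cells at 11.2 ± 4.67 cpm against 12.0 ± 3.40 cpm, with a log2 fold change of 0.10 (SE 0.35). Neither passed the test. Their sulfonylurea receptor partners Abcc8 and Abcc9 had log2 fold changes of 0.14 (SE 0.22) and −0.12 (SE 0.24).

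Kcnd2 and Kcnmb2 were named because the study lists them, on these samples. Kcnd2, an A-type subunit of dendrites, was at 182, 156, 144 and 190 cpm in DJ-1+/+ mice and at 143, 153, 147, 168 and 183 cpm in DJ-1-/- mice, which overlapped throughout (log2 fold change −0.08, SE 0.10, exact permutation p = 0.476). Kcnmb2, an inactivating BK beta subunit, was at 34.0 ± 6.52 cpm (SD, n = 4) against 34.8 ± 6.25 cpm (SD, n = 5), with a log2 fold change of 0.03 (SE 0.19, exact permutation p = 0.778). Its pore subunit Kcnma1 was at 188 ± 24.2 cpm against 180 ± 32.4 cpm.

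The members at the ends of the fold changes were silent, EAG-type and calcium-activated subunits beside Kcnj2 and Kcnt2. Of members with a mean of at least 10 cpm, the 3 highest log2 fold changes were those of Kcnt2, of Kcns3 at 0.53 (SE 0.28, exact permutation p = 0.143) and of Kcng2 at 0.52 (SE 0.30, exact permutation p = 0.111). Kcns3 and Kcng2 both encode silent subunits. Kcns3 was at 13.1, 27.3, 29.1 and 12.4 cpm in DJ-1+/+ mice and at 20.0, 37.3, 35.1, 32.0 and 23.4 cpm in DJ-1-/- mice, with DJ-1+/+ replicates 1 and 4 the lowest. Without both of these mice its log2 fold change was 0.073, and with Xist as a covariate it was 0.32. With 1 library left out it lay between 0.35 (without DJ-1+/+ replicate 4) and 0.74, and that of Kcng2 lay between 0.30 (without DJ-1+/+ replicate 1) and 0.76 (without DJ-1+/+ replicate 4). The 3 lowest were those of Kcnj2, of Kcnh1 at −0.36 (SE 0.25, exact permutation p = 0.254), an EAG-type subunit, and of Kcnn2 at −0.13 (SE 0.20, exact permutation p = 0.460), another small-conductance calcium-activated subunit. Kcnab2, a beta subunit of Kv1 channels, lies 1.48 Mb from Park7 on chromosome 4 (chr4:152390742-152477871) and was at 158 ± 8.56 cpm against 154 ± 12.8 cpm, with a log2 fold change of −0.03 (SE 0.08).

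Voltage-gated pore subunits of high level differed between genotypes by less than their spread. In the Kv1 class Kcna1 was at 150 ± 17.3 cpm (SD, n = 4) against 154 ± 12.9 cpm (SD, n = 5) and Kcna6 at 136 ± 11.2 cpm against 128 ± 10.8 cpm. In the Kv2 class of somatic delayed rectifiers Kcnb2 was at 110 ± 11.9 cpm against 112 ± 5.58 cpm. Kcnc1 of the Kv3 class was at 181 ± 18.7 cpm against 193 ± 14.4 cpm. The M-channel subunit Kcnq3 was at 148 ± 10.5 cpm against 148 ± 17.4 cpm. The leak channels Kcnk3 and Kcnk9 were at 111 ± 2.99 cpm against 111 ± 9.37 cpm and at 125 ± 21.4 cpm against 128 ± 8.78 cpm. None of these passed an unadjusted p of 0.05. Of 27 channel partner genes fixed as a list (Dpp6 and Dpp10 of Kv4 channels, Lgi1 and Adam22 of Kv1 channels, calmodulins and others), 25 could be tested, 11 had a log2 fold change above 0 and 14 below 0, and 0 passed an unadjusted p of 0.05 in edgeR or in DESeq2. The median of those 25 was −0.01.

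Many potassium channel genes varied between mice of the same genotype by more than counting error. For each gene, the squared deviations of the counts from the rate of their genotype were divided by the counts that rate gives, which yields a chi-square per degree of freedom (7 degrees) that is near 1 where counting error alone separates mice. Over the 62 members with at least 90 counts its median was 1.82, beside 1.11 over all 12637 genes of that depth, and the median total was 615 counts for the members and 554 for all genes. It was above 3 in 20 of the 62, which is 32.3%, beside 10.1% of all genes. Levels differed by over 2-fold between the highest and the lowest mouse in 43.5% of these members and in 25.1% of all genes. Without DJ-1+/+ replicate 4 and DJ-1-/- replicate 5 together, a pair chosen after the values were seen, 11 of the 62 were above 3. That is 17.7%, beside 8.97% of all genes.

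**Figure D4:**
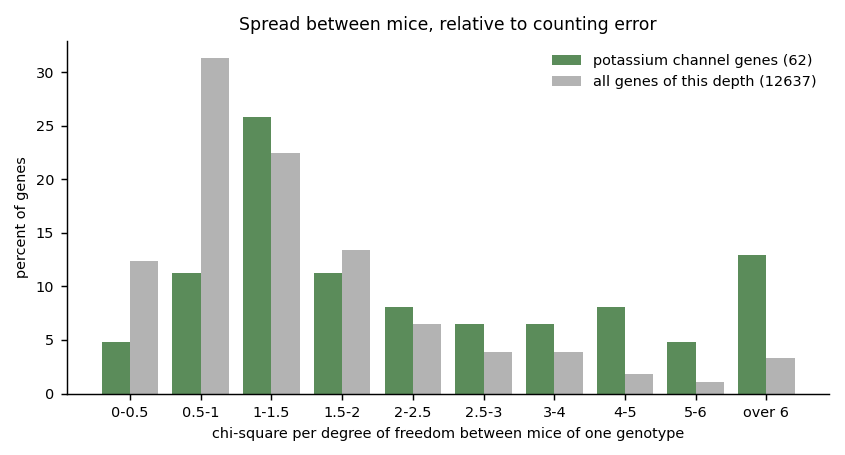
The share of genes in classes of chi-square per degree of freedom between mice of one genotype, for the 62 potassium channel genes with at least 90 counts (green) and all 12637 genes of that depth (grey). The members reach further to the right, with 12.9% of them over 6 beside 3.28% of all genes.

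Among the members above 3, named after their values were seen, were Kcnip2, Kcng4, Kcna4, Kcnmb4, Kcnj14, Kcnj4, Kcnf1, Kcns2, Kcne4, Kcna2, Kcnn3, Kcnv1, Kcnc4, Kcnma1, Kcnc2, Kcnj9, Kcnab1 and Kcnk10. They include silent, Kv1, Kv3, auxiliary, BK, inward rectifier and tandem pore-domain subunits. Among those with at least 90 counts, 0 of the 3 EAG-type and 0 of the 3 Kv4 subunits were above 3. The Kv4 subunits Kcnd1, Kcnd3 and Kcnd2 lay at 2.73, 2.44 and 2.03, all above the median of 1.82 of the 62 members. Kcna4, an inactivating Kv1 subunit, was at 29.7, 70.5, 51.2 and 106 cpm in DJ-1+/+ mice and at 47.0, 59.2, 75.3, 62.0 and 100 cpm in DJ-1-/- mice. It was highest in DJ-1+/+ replicate 4 and DJ-1-/- replicate 5 and lowest in DJ-1+/+ replicate 1. Kcnmb4, the neuronal BK beta subunit, was at 51.1, 39.8, 41.9 and 81.3 cpm in DJ-1+/+ mice and at 39.0, 55.5, 40.2, 35.1 and 87.7 cpm in DJ-1-/- mice. The same pair of mice was the highest.

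Other members had the opposite order. Kcnj14, an inward rectifier known from motor nuclei of the brainstem, was at 30.9, 11.4, 30.2 and 3.39 cpm in DJ-1+/+ mice and at 35.0, 40.1, 25.8, 19.6 and 8.77 cpm in DJ-1-/- mice. Kcng4, a silent subunit, was at 57.0, 25.0, 68.6 and 23.7 cpm in DJ-1+/+ mice and at 72.1, 59.2, 38.2, 33.1 and 20.5 cpm in DJ-1-/- mice. Both were lowest in DJ-1+/+ replicate 4 and DJ-1-/- replicate 5, and DJ-1+/+ replicate 2 was next. Within the Kv3 class, counts of Kcnc4 were 0.34 and 0.36 times those of Kcnc2 in these 2 mice and between 0.64 and 1.03 times in the other 7.

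DJ-1+/+ replicate 4 and DJ-1-/- replicate 5 are a pair of mice chosen after their values were seen. They were the 2 highest libraries for 17 of the 62 members, which is 27.4%, beside 6.14% of all 12637 genes. Among these were Kcna4, Kcnc2, Kcnd2, Kcnd3, Kcne4, Kcnf1, Kcnip1, Kcnip4, Kcnj3, Kcnj9, Kcnma1, Kcnmb4, Kcnn1, Kcnn3, Kcnq3 and Kcns2. They were the 2 lowest for 7 members, Kcnc4, Kcnd1, Kcng4, Kcnj14, Kcnj16, Kcnk10 and Kcnt1, which is 11.3%, beside 6.16% of all genes. These counts go by rank, whatever the gap. Kcnt1 was at 54.2 and 55.5 cpm in the pair and at 55.8 cpm in DJ-1+/+ replicate 3 and DJ-1-/- replicate 4. A list of 14 forebrain and thalamic genes summed to 1310 cpm in DJ-1+/+ replicate 4 and to 1301 cpm in DJ-1-/- replicate 5, and to between 709 and 909 cpm in the other 7 mice. Within that list Tcf7l2, a transcription factor of the thalamus, was at 323 and 322 cpm in these 2 mice and between 81.1 and 166 cpm in the others. They were the 2 highest mice for 7 of the 14 genes, Tcf7l2 among them, and the 2 lowest for 1, Neurod6, a transcription factor of cortical excitatory neurons, which was at 6.77 and 16.6 cpm in them and between 18.2 and 48.6 cpm in the others. Calb2 was at 132 and 138 cpm in them and between 135 and 168 cpm in the others, and the cortical gene Emx1 had 7 counts over all libraries. Xist was near 0 in both mice, and also in DJ-1+/+ replicate 1. The part of tissue composition or of sex in these channel levels was not tested.

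Replicates 1 and 3 of DJ-1+/+ and replicate 1 of DJ-1-/-, a set of mice chosen after their values were seen, were the 3 lowest for 8 of the 62 members, which is 12.9%, beside 3.96% of all genes. These were Kcna4, Kcnb2, Kcnc2, Kcnip2, Kcnj4, Kcnk2, Kcnn3 and Kcns2. Of these, Kcna4, Kcnc2, Kcnn3 and Kcns2 were also among the members highest in DJ-1+/+ replicate 4 and DJ-1-/- replicate 5. The forebrain and thalamic list was lowest in the same set of mice, at 736, 726 and 709 cpm, and lay between 820 and 1310 cpm in the others. Its part in these channel levels was not tested. Kcnip2, a calcium-binding partner of Kv4 channels with the highest chi-square per degree of freedom of the 62, was at 33.3, 76.1, 27.9 and 53.0 cpm in DJ-1+/+ mice and at 14.0, 64.7, 83.6, 54.8 and 51.6 cpm in DJ-1-/- mice. Kcnj4, an inward rectifier of forebrain neurons, was at 7.13, 17.0, 6.98 and 20.3 cpm in DJ-1+/+ mice and at 4.00, 39.2, 11.3, 18.6 and 16.6 cpm in DJ-1-/- mice.

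**Figure D5:**
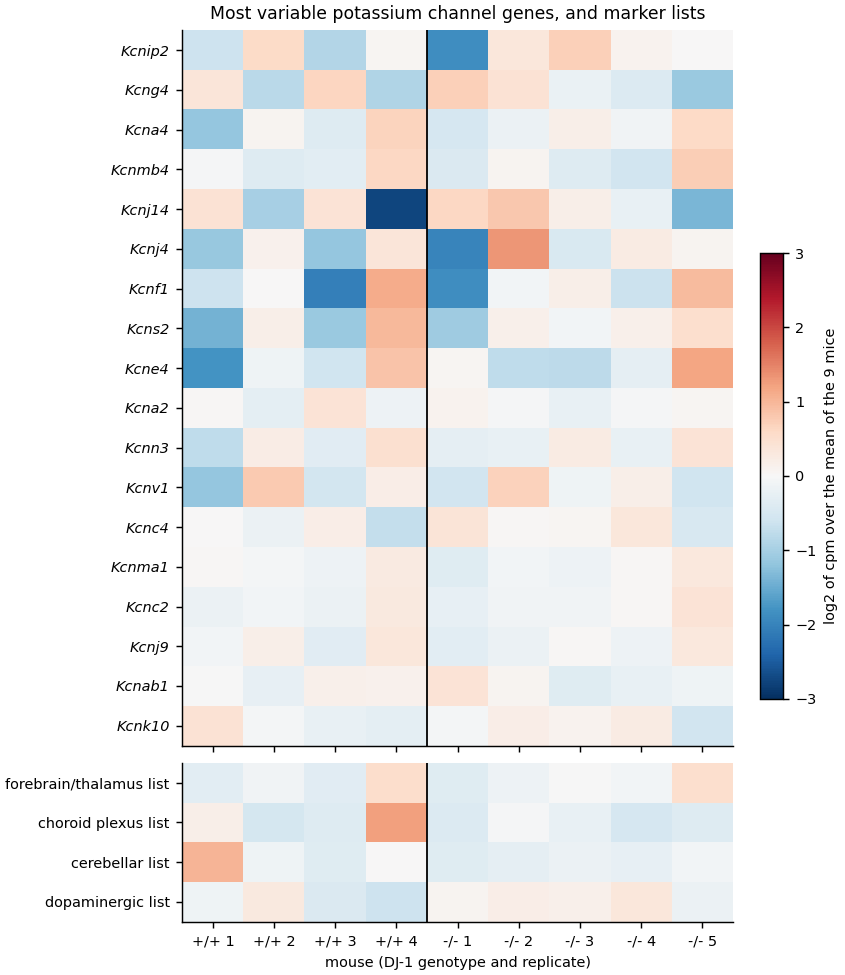
Of the members with a chi-square per degree of freedom above 3, 18 are drawn, with the summed level of 4 marker lists below, as log2 of cpm over the mean of the 9 mice, from blue (lower) to red (higher); columns are mice by DJ-1 genotype and replicate. DJ-1+/+ replicate 4 and DJ-1-/- replicate 5 share red for Kcna4, Kcnmb4, Kcnf1 and the forebrain and thalamus list (1310 and 1301 cpm) and blue for Kcnj14 and Kcng4.

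Some members kept nearly the same level in all mice. Among the 62 members with at least 90 counts, the lowest chi-square per degree of freedom was 0.360 for Kcnj10, followed by 0.474 for Kcnj11, 0.478 for Kcnk3, 0.589 for Kcnt1 and 0.622 for Kcnk1, values at or below what counting error gives. It was below 1.5 in 26 of the 62 members, which is 41.9%, beside 66.2% of all 12637 genes.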

How the data were processed

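Midbrain RNA of 4 DJ-1+/+ and 5 DJ-1-/- mice was sequenced, 1 animal to a library, with a 3′ kit (QuantSeq FWD) and unique molecular identifiers (UMIs). The deposited files hold raw, whole-number UMI counts per gene, and a gene that is not listed was set to 0. The submitters' processing notes name fastp 0.20.0, STAR 2.7.3a, Subread, featureCounts 2.0.0, UMI-tools 1.0.0 and GRCm38, and the annotation and the use of strand are not given in the sources used here. Ensembl identifiers were matched to GENCODE M21 (GRCm38), which held 26576 of them and lacked 26.

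All genes that reached 10 counts in sum were fitted together with edgeR 4.0.16 (TMM factors, quasi-likelihood test, genotype as the only term) under R 4.3.3, with Benjamini-Hochberg adjustment over all genes tested. The script was tested on simulated data with known changes. cpm is the count over the library total. Single genes were also compared by a two-sided exact permutation test, and spread between mice by a chi-square per degree of freedom around each genotype's rate. Alternatives were RLE factors, library totals, DESeq2 1.42.0, the likelihood ratio test, other count filters, a replicate block, Xist as a covariate, thinned counts and libraries left out. Intervals and limits on 0 counts cover counting error only where they rest on 1 library, and the precision of a low member is set by its counts.

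Members named were the 3 channels of dopaminergic neurons, up to 3 of the highest level per class, those with an unadjusted p under 0.05 or without overlap, the 3 highest and 3 lowest fold changes at 10 cpm or more, Kcnj10, Kcnj16, Kcnj8, Kcnj11, Kcnd2 and Kcnmb2, and those with a library apart from its group. The members and the lists (partner, dopaminergic, cerebellar, choroid plexus, astrocyte, oligodendrocyte, mural, forebrain) were chosen with earlier results of these data known. Some genes, and 1 sequence, are not reported here by name or in figures. Fold changes under alternatives were computed for the members whose fold change is printed.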

Additional observations from a re-analysis of the deposited data

Results flagged for a closer look

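Each genotype of the 78 tested members was examined for a library apart from its group, by Dixon's 95% criterion. Of 156 groups 10 held one, where chance gives about 1 in 20, or 7.8. Those with a mean of at least 10 cpm included the following 4. Kcnc2, a Kv3 subunit, was at 172.67 cpm in DJ-1+/+ replicate 4, the highest of its group. Kcnip1, a partner of Kv4 channels, was at 104.96 cpm in the same mouse, the highest. Kcnj16 was at 102.70 cpm in that mouse, the lowest of its group. Kcne4, an auxiliary subunit, was at 28.26 cpm in DJ-1-/- replicate 5, the highest of its group. Of these libraries, DJ-1+/+ replicate 4 and DJ-1-/- replicate 5 are the pair in which the forebrain and thalamic list was highest, at 1310 and 1301 cpm, and its part in these values was not tested.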

How the results depend on the processing

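No potassium channel gene passed an adjusted p of 0.05 in any alternative run in edgeR or DESeq2. At an unadjusted p of 0.05, 2 passed as reported, 1 in DESeq2, and 5 of 89 with no count filter (Kcnc4, Kcnh3, Kcnj2, Kcns3 and Kcnt2), which is 5.62% beside 3.01% of all genes. With Xist as a covariate 2 passed, Kcnt2 and Kcnh3, which is 2.56% beside 2.46% of all genes. Leaving out each library in turn gave between 1 and 3. It gave 1 without DJ-1+/+ replicate 1 or 3, where 2.33% and 3.41% of all genes passed. It also gave 1 without DJ-1-/- replicate 2 or 5, where 1.90% and 3.65% of all genes passed. Without DJ-1+/+ replicate 4 it gave 3, which is 3.85% beside 3.21% of all genes. Members without overlap numbered 0 as reported and between 0 and 3 with 1 library left out: 3 without DJ-1+/+ replicate 4 (Kcnh3, Kcnh8 and Kcnt2) and 1 without DJ-1+/+ replicate 2 (Kcnj2). Members above 3 in chi-square per degree of freedom numbered between 15 and 22 of 62 with 1 library left out. All genes of that depth gave between 8.94% and 11.6% there, and the members between 24.2% and 35.5%. Without DJ-1+/+ replicate 4 and DJ-1-/- replicate 5, an alternative chosen after seeing the data, 11 members were above 3, which is 17.7% beside 8.97%. The cause of these shifts was not tested. The fits with a library left out hold fewer libraries, and the fit with no count filter holds more genes of low count.

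Replicate numbers did not pair the libraries throughout (correlations of same-numbered deviations 0.29, 0.04, −0.12 and −0.19). DJ-1+/+ replicate 1 did correlate most highly with DJ-1-/- replicate 1. DJ-1+/+ replicates 2, 3 and 4 correlated most highly with DJ-1-/- replicates 4, 1 and 5, at 0.33, 0.48 and 0.54. With a replicate block, 3 members passed an unadjusted p of 0.05 (Kcnc4, Kcns3 and Kcnj14), which is 3.85% beside 3.15% of all genes, and 0 an adjusted p. The log2 fold changes of 4 printed members changed sign, to −0.075 for Kcnd3, 0.051 for Kcnj16, −0.0981 for Kcnj6 and −0.0755 for Kcnn3. Replicate 5 exists only among DJ-1-/- mice, so that mouse formed its own block and did not inform the genotype difference. With no block and that mouse left out, Kcnd3 was at −0.0775 and Kcnj16 at 0.0496.

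Of 320 repeats of the 16 printed fold changes, 258 kept direction and side of the threshold and 38 changed sign, all of members with an unadjusted p above 0.05. With DJ-1+/+ replicates 1 and 4 left out, the values became 0.0856 for Kcnd2, −0.0688 for Kcnj6, −0.19 for Kcnj8 and −0.0359 for Kcnmb2. With Xist as a covariate they were 0.0274 for Kcnd2, −0.0002 for Kcnj8 and −0.0079 for Kcnmb2. With no count filter Kcnj16 was 0.009, and with counts thinned by a random draw Kcnmb2 was −0.0243. A second draw, added after seeing the data, gave −0.0316 for Kcnj6 and left 1 member, Kcnt2, past an unadjusted p of 0.05, with Kcnj2 at −0.40. With 1 library left out, the log2 fold change ranged from −0.0657 to 0.0207 for Kcnab2, −0.0775 to 0.13 for Kcnd3, −0.0908 to 0.0496 for Kcnj16, −0.11 to 0.23 for Kcnj6, −0.15 to 0.31 for Kcnj8, −0.083 to 0.16 for Kcnmb2 and −0.16 to 0.24 for Kcnn3, −0.55 (without DJ-1-/- replicate 3, past an unadjusted p of 0.05) to −0.23 for Kcnh1, −0.27 to −0.015 for Kcnn2, and the median of all tested members from −0.0025 (without DJ-1-/- replicate 5) to 0.0475.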
